A study of Rattus norvegicus with 192 samples.

Results

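The kidneys of Zucker Diabetic Fatty (ZDF) rats and of their lean controls were compared on the same whole egg diet. The comparison rests on 12 kidney mRNA libraries, 6 from ZDF rats and 6 from lean rats, of 192 libraries in the series. Its members are the 6797 genes that stand in both the ZDF kidney table, which lists 7501 genes, and the lean kidney table, which lists 7607. The study fed male ZDF (fa/fa) and lean (fa/+) rats a diet based on dried whole egg powder or on casein and sequenced mRNA and microRNA from 4 tissues. All 12 rats considered here ate the whole egg diet, arrived at 6 weeks of age and were fed for 8 weeks. The lean rats carried 1 copy of the fa allele, so no rat was free of it. A further 12 kidney libraries came from the casein arms, again 6 rats of each genotype, and serve below for the same contrast on the other diet.

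Genotype was taken from the column names of the count tables. The strain field of the sample labels gave the other genotype for 7 of the 12 whole egg rats. Counts of 3' ends report how much of a transcript was present and not which leptin receptor allele it carried. Which source is right was not settled here. Every direction given below holds for the genotypes of the column names. The leptin receptor gene was not matched to a row. Gene symbols were known for 387 of the 6797 genes, all from lists that the study compiled from its diet comparisons of these rats, which are therefore not a neutral sample of the kidney. All other genes are known only by their Ensembl identifiers.

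The fa allele disables the leptin receptor, through which fat tissue signals satiety, and fa/fa males overeat, become obese and turn diabetic. In the kidney, the proximal tubule reabsorbs glucose and amino acids and makes glucose and ammonia, while the distal tubule and collecting duct set salt and acid balance. Sustained high glucose is known to stress these tubules and the glomerulus, and keratins of the tubule are a known marker of injury.

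Counts over the joined genes ranged from 416300 to 1440631 per library in the lean rats, with a median of 1179540, and from 942275 to 3179162 in the ZDF rats, with a median of 1328080. A single gene without a symbol took 14.6% to 47.2% of the counts of a library. Lean rat 10, the shallowest library, stood at 122.8 on the first principal component (29.6% of the variance) and the other 11 libraries between -22.1 and 2.66, and 693 of the joined genes had no count in it. ZDF rat 22 stood at 74.6 on the second component (15.4%), where lean rat 2 was at -53.4. Of the kidney markers that carry a symbol, Acsm2 of the proximal tubule averaged 325 CPM (counts scaled to a common library size by TMM, per 1e6) in the lean and 417 CPM in the ZDF rats, and Car2 of the collecting duct 214 and 247 CPM.

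No gene passed a false discovery rate (FDR) of 5% between ZDF and lean kidneys on whole egg, 0% of the 6797 tested with edgeR's quasi-likelihood test. Genes with small p-values included a growth-factor-induced gene, Phlda1, with a fitted level 4.98 times as high in the ZDF rats as in the lean rats, and, on the lower side, genes of myelin and neurons such as Mbp and Rtn1 together with genes of fat cells such as Fabp4. At an unadjusted p under 0.05 stood 314 genes, 4.62% of those tested, 121 of them with a higher level in ZDF rats (1.78%) and 193 with a lower one (2.84%). This edgeR share is no more than the 5% that such a cut would pass if no gene differed. DESeq2 called 2 genes on the same libraries, Phlda1 and ENSRNOG00000011815, and had 389 genes at an unadjusted p under 0.05, and limma-voom called 0, with 365 genes at an unadjusted p under 0.05. With the genotypes of the strain field in place of those of the column names, edgeR called 0 genes, with 352 at an unadjusted p under 0.05, and Phlda1 had a log2 fold change of -0.97. The smallest adjusted p in edgeR was 0.336. For the same contrast in an edgeR model of all 24 kidney libraries it was 0.051, for ENSRNOG00000011815. Phlda1 had an edgeR adjusted p of 0.067 there, and 0 genes were called. In the fit of the 12 libraries, the median standard error (SE) of a log2 fold change was 0.47 over all genes and 0.30 for the 875 genes over 100 CPM.

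Phlda1 encodes a pleckstrin homology-like domain protein that growth factors and cell stress induce. In the lean rats its level had a minimum of 3.35 CPM, a median of 6.51 CPM and a maximum of 11.4 CPM, and in the ZDF rats a minimum of 7.07 CPM, a median of 37.9 CPM and a maximum of 46.9 CPM. All ZDF rats but rat 7 were above every lean rat, and rat 7 sat within the lean range. The log2 fold change was 2.32 (SE 0.51, n = 6 and 6) with an edgeR adjusted p of 0.411, and DESeq2 gave 2.31 with an adjusted p of 0.0129.

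ENSRNOG00000011815, for which no symbol was known, had the smallest p of all genes. Its lean rats spanned 34.9 to 80.7 CPM with a median of 51.9 CPM, and its ZDF rats 65.0 to 757 CPM with a median of 159 CPM. Here too 5 of 6 ZDF rats exceeded every lean rat, and rats 18 and 20 were the highest, at 757 and 350.3 CPM. The log2 fold change of 2.22 (SE 0.46) had an edgeR adjusted p of 0.336 and a DESeq2 adjusted p of 0.0129. Without ZDF rat 18 it was 1.54.

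Groups that did not overlap at all were found for 9 of 6797 genes (0.132%). In 6 every ZDF rat was above every lean rat (0.0883%) and in 3 every ZDF rat was below (0.0441%). Over so many genes, some separate 6 rats from 6 even without a genotype difference, so no excess is read from the count. Of the 9, 2 carried a symbol. Cdh1, which encodes E-cadherin, the adhesion protein of epithelial cells, spanned 43.5 to 78.7 CPM in the lean rats (median 59.0) and 85.2 to 157 CPM in the ZDF rats (median 106). Its log2 fold change was 0.82 (SE 0.28, edgeR adjusted p = 0.765). Pbld1, named here after its values were seen, ran from 50.2 to 87.2 CPM in the lean rats and from 101 to 185 CPM in the ZDF rats, with a log2 fold change of 0.75 (SE 0.27, edgeR adjusted p = 0.825). Neither gene passed the test over all genes. ENSRNOG00000011875, the next by p after Phlda1 among the genes higher in ZDF rats, had a log2 fold change of 1.41 (SE 0.40, edgeR adjusted p = 0.578).

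**Figure D1:**
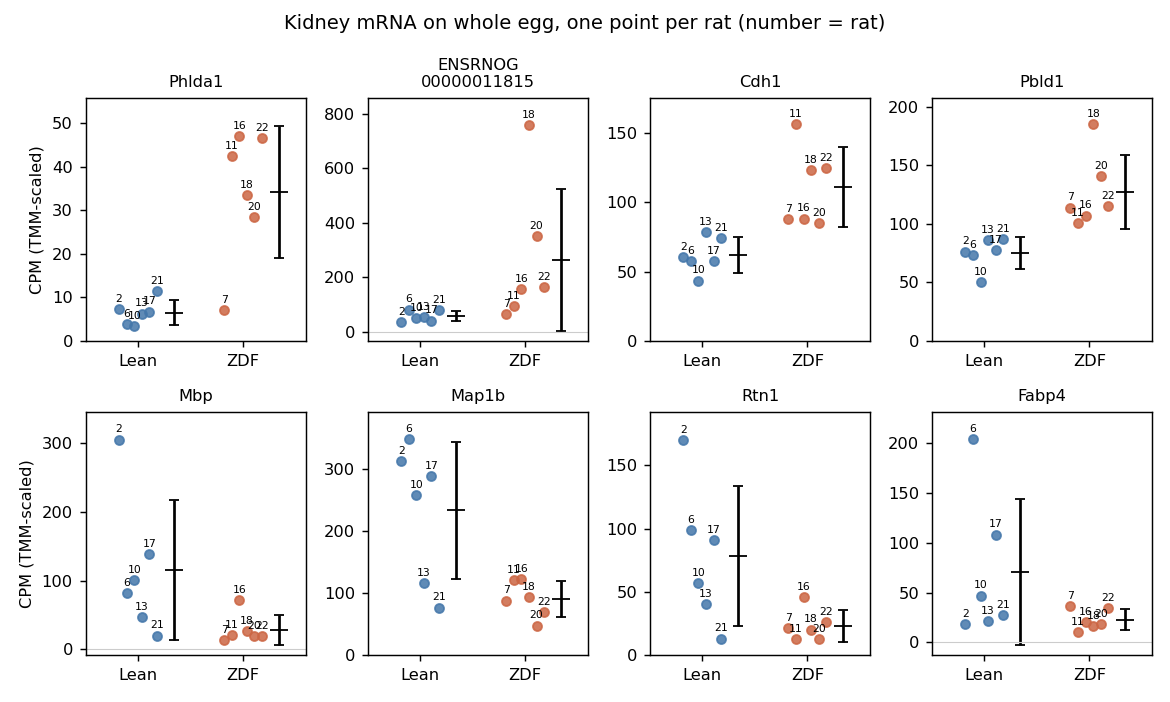
Level of 8 genes in each of the 12 kidney libraries on whole egg, in CPM scaled by TMM, with 1 point per rat and its number; black bars give the mean ± SD of 6 rats. Phlda1 is between 28.4 and 46.9 CPM in 5 ZDF rats and 7.07 CPM in ZDF rat 7, Cdh1 and Pbld1 separate the groups, and Mbp, Map1b, Rtn1 and Fabp4 are highest in some of the lean rats only.

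Of the 10 genes with the smallest p on the lower side, the 3 that carry a symbol are genes of myelin and neurons. Mbp, myelin basic protein, was at 19.7 to 305 CPM in the lean rats with a median of 91.0 CPM, and at 12.7 to 71.9 CPM in the ZDF rats with a median of 20.1 CPM. Lean rat 2 was the highest, lean rats 13 and 21 lay inside the ZDF range, and ZDF rat 16 was the highest ZDF rat. The log2 fold change was -1.995 (SE 0.50, edgeR adjusted p = 0.578), and -1.39 without lean rat 2. Map1b, a microtubule-associated protein of growing neurons, had a lean median of 273 CPM (76.6 to 349) against a ZDF median of 90.5 CPM (47.3 to 123), a log2 fold change of -1.37 (SE 0.35). Rtn1, a reticulon of neurons and neuroendocrine cells, had medians of 74.0 CPM (12.9 to 170) and 20.6 CPM (12.3 to 45.9), a log2 fold change of -1.76 (SE 0.46). Both had the same edgeR adjusted p as Mbp, 0.578, and in both lean rats 13 and 21 were the lowest of their group and overlapped the ZDF rats. ENSRNOG00000014230 and ENSRNOG00000029912, the leading genes without a symbol on this side, had log2 fold changes of -1.59 (SE 0.39) and -1.58 (SE 0.41).

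The prefrontal cortex (PFC) and adipose libraries of the same rats were used to describe such genes. Mbp averaged 3712 CPM and Rtn1 3002 CPM in the PFC of the whole egg lean rats. A set was therefore drawn from the 5407 genes measured in kidney, adipose tissue and PFC, without use of kidney values but after the kidney pattern had been seen. It holds the 131 genes whose mean CPM in PFC was at least 20 times that in adipose tissue. In the kidney, 120 of the 131 were negative and 11 positive, and their median log2 fold change was -1.30 beside 0.03 over the 5407 genes. Without lean rat 2 the median was -0.94 with 118 of 131 negative, and with the strain field's genotypes it was 0.78. None was called at an FDR of 5%, and 70 of them (53.4%) stood below an unadjusted p of 0.05 on the lower side, against 3.01% of the 5407. Of the 10 genes with the smallest p on the lower side, 7 belong to this set, and none of the 10 on the higher side does. Mbp and Rtn1, which prompted the set, are among the 7, so this count is not separate support. The 131 genes come from the same 12 libraries and vary together over the lean rats. Their counts and shares therefore describe the set and are not independent evidence gene by gene.

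The summed kidney level of the 131 genes was 7179 CPM in lean rat 2, 4648 in rat 17, 4272 in rat 6, 3799 in rat 10, 2261 in rat 13 and 1938 in rat 21. In the ZDF rats it ran from 1472 to 2818 CPM with a median of 2141 CPM. So 4 of 6 lean rats lay above every ZDF rat and the other 2 inside the ZDF range. Relative to the mean sum in PFC libraries these are 2.17% to 8.04% in the lean and 1.65% to 3.15% in the ZDF rats. In lean rat 2 alone stood the highest lean level of 74 of the 131 genes, and in rat 21 the lowest of 70. The casein arms spanned 1523 to 8864 CPM in lean and 1996 to 10300 CPM in ZDF rats, so the highest sums of all 24 kidneys were those of casein rats 5 (ZDF) and 4 (lean). Some of the higher sums stood in shallow libraries. ZDF casein rat 5 held 137181 counts, the fewest of the 24, and lean casein rat 4 held 693687. Lean whole egg rats 10 and 17 held 416300 and 637614, but lean whole egg rats 2 and 6 held 1082734 and 1276346. On whole egg, between 0 and 5 of the 131 genes had no count in a lean library and between 0 and 6 in a ZDF library, and on casein between 0 and 3 and between 0 and 10. The part of depth in these differences was not tested.

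**Figure D2:**
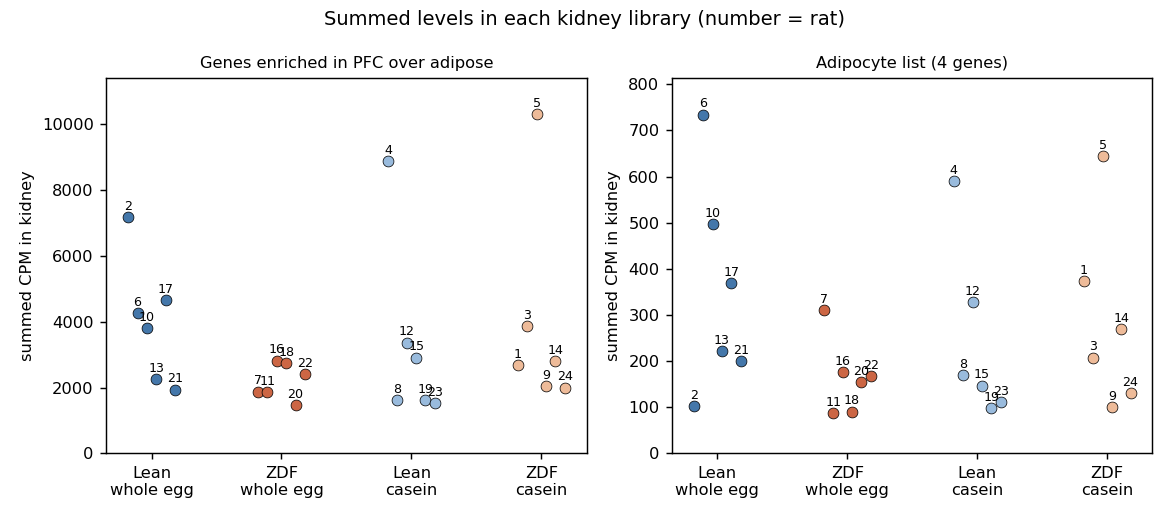
Summed CPM in each of the 24 kidney libraries, by genotype and diet, with 1 point per rat and its number. The left panel sums 131 genes enriched in PFC over adipose tissue, and the right panel the 4 adipocyte list genes matched by symbol. On whole egg, lean rats 2, 6, 10 and 17 lie above all ZDF rats on the left, and on the right lean rat 6 is highest (734 CPM) while lean rat 2 is among the lowest (103 CPM).

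Marker genes of fat cells were also among those with small p-values on the lower side. Of the 12 genes of the adipocyte list, 4 were matched by symbol, none passed the FDR, and all 4 were negative. Their median log2 fold change was -1.36 beside 0.04 over all 6797 genes. Fabp4, the fatty acid binding protein of adipocytes, spanned 18.2 to 204 CPM in the lean rats (median 37.1) and 10.4 to 36.7 CPM in the ZDF rats (median 19.5), a log2 fold change of -1.64 (SE 0.51, edgeR adjusted p = 0.578). Lean rats 6 and 17 were the highest, lean rat 10 lay above the ZDF range, and lean rats 2, 13 and 21 lay inside it. Without lean rat 6 the log2 fold change of Fabp4 was -0.93. For adiponectin (Adipoq) the log2 fold change was -1.09 (SE 0.53), for resistin (Retn), which had no count in lean rat 21, -1.70 (SE 0.73), and for lipoprotein lipase (Lpl) -0.91 (SE 0.38). Without lean rat 6 these were -0.62, -1.13 and -0.68. Carbonic anhydrase 3 (Ca3), abundant in fat and muscle, was at 25.0 to 512 CPM in lean and 51.9 to 200 CPM in ZDF rats, a log2 fold change of -1.26 (SE 0.51). The adipocyte list holds this gene under another symbol, Car3, so it was not matched and is not counted among the 4.

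The summed level of the 4 adipocyte genes was 103 to 734 CPM in the lean rats and 86.6 to 310 CPM in the ZDF rats. Their order over rats differed from that of the PFC-enriched genes: lean rat 6 was the highest and lean rat 2, the first for PFC-enriched genes, the lowest of its group. A wider set, the 106 genes whose mean CPM in adipose tissue was at least 20 times that in PFC, had values nearer 0 than these 4 genes. In the kidney 65 of the 106 were negative and 41 positive, none was called, and the median log2 fold change was -0.19 beside 0.03 over the 5407 genes. Of the 106, 18 (17%) stood below an unadjusted p of 0.05 on the lower side, against 3.01% of the 5407 genes. On the higher side 3 of the 106 did, against 79 of the 5407. Their summed level was 4849 to 11960 CPM in the lean rats (median 7169) and 5311 to 13952 CPM in the ZDF rats (median 7735), so the groups overlapped and the ZDF median was the higher. In adipose tissue itself, the whole egg lean rats averaged 3675 CPM of Adipoq and the ZDF rats 2448 CPM, with a log2 fold change of -0.58 (SE 0.84). The part of these adipocyte markers in the differences of lipid genes was not tested, and in whole tissue fewer cells of a type and less RNA per cell cannot be told apart.

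Of the 18 genes of the lipogenesis list, 7 carried a symbol, and none was called. Their median log2 fold change was -0.41, with 6 negative and 1 positive. Thrsp, a nuclear protein that promotes fatty acid synthesis in fat and liver, was at 6.06 to 183 CPM in the lean rats (median 53.4) and 8.51 to 30.4 CPM in the ZDF rats (median 21.2). Lean rats 6 and 17 were again the highest, and its log2 fold change was -1.82 (SE 0.54, edgeR adjusted p = 0.578), and -1.23 without lean rat 6. Scd, the stearoyl-CoA desaturase, was at -1.20 (SE 0.66) on the log2 scale, and Fasn, fatty acid synthase, at -0.41 (SE 0.49). Plin2, which coats lipid droplets, had a log2 fold change of -1.65 (SE 0.70), but lean rat 10 stood at 63.6 CPM from 19 counts and the other lean rats between 3.58 and 15.2 CPM. Without rat 10 the log2 fold change of Plin2 was -0.83. For cholesterol synthesis, 10 of 26 genes carried a symbol, none was called, and the median was -0.21. It held 8 negative and 2 positive values. Fdps, farnesyl diphosphate synthase, was the most positive at 1.28 (SE 0.55), with a mean of 6.33 CPM in lean and 16.2 CPM in ZDF rats, and 5 of 6 ZDF rats lay above every lean rat while rat 22 lay below.

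**Figure D3:**
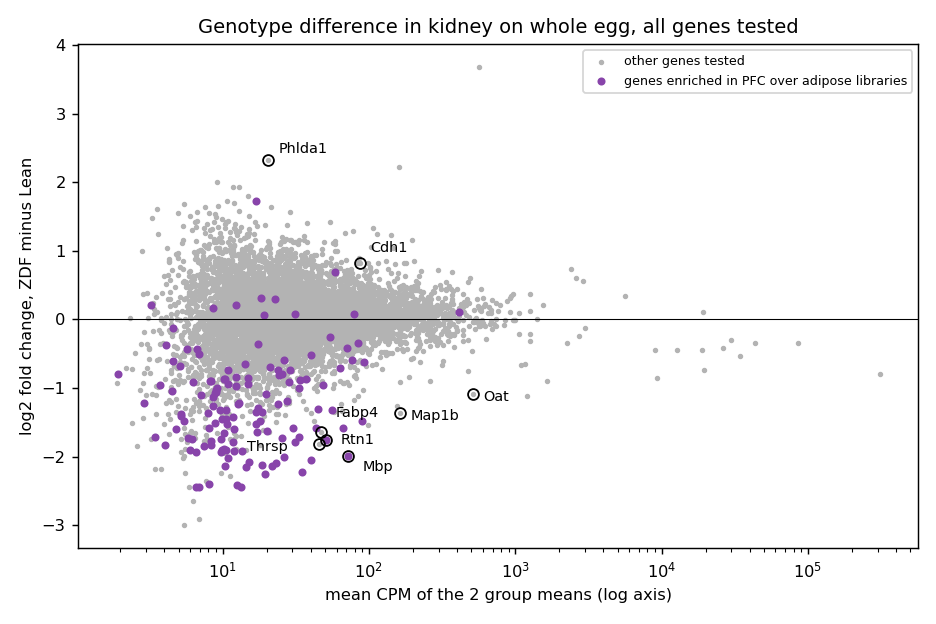
Log2 fold change (ZDF minus lean, whole egg) of each of the 6797 genes against the mean of the 2 group means in CPM on a log axis; purple points are the 131 genes enriched in PFC over adipose libraries and circles mark 8 named genes. Most purple points lie below 0 (120 of 131), Phlda1 is at 2.32, and the grey point at 3.68 is a gene without a symbol whose ZDF level is highest in rat 11.

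None of the tubule genes with a symbol passed the test. Slc12a3, the thiazide-sensitive sodium chloride cotransporter of the distal convoluted tubule, averaged 145 CPM in the lean and 258 CPM in the ZDF rats, a log2 fold change of 0.86 (SE 0.49, edgeR adjusted p = 0.999). Lean rat 13 had only 4 counts of it, 3.58 CPM, whereas the other lean rats were at 62.9 to 281 CPM and the ZDF rats at 131 to 418 CPM. Rhbg, an ammonia transporter of the collecting duct, was at 3.35 to 10.2 CPM in lean and 7.24 to 26.0 CPM in ZDF rats, and 5 of 6 ZDF rats were above every lean rat. Its log2 fold change was 1.27 (SE 0.51, edgeR adjusted p = 0.932). Krt8, a keratin of simple epithelia that rises in injured tubules, had 0.93 (SE 0.40) on the log2 scale, with 4 of 6 ZDF rats above every lean rat. Of the 29 genes of the tubular injury list, only Krt8 and S100a10 (log2 fold change -0.44) carried a symbol, so tubular injury could not be judged from this list. Cyp24a1, the enzyme that inactivates vitamin D, ran from 36.8 to 92.9 CPM in the lean and from 8.67 to 206 CPM in the ZDF rats. ZDF rats 7 and 22 were below every lean rat and the other 4 above, and the log2 fold change was 0.74 (SE 0.48).

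In amino acid metabolism, Oat, ornithine aminotransferase, was at 271 to 1237 CPM in the lean rats (median 681) and 189 to 614 CPM in the ZDF rats (median 276), a log2 fold change of -1.08 (SE 0.35, edgeR adjusted p = 0.657). Every ZDF rat was below the lean median, and lean rats 2, 6 and 10 lay inside the ZDF range. Among the 35 genes of the ammonia and amino acid list, 9 carried a symbol. None was called, 6 were positive, and the median log2 fold change was 0.40. On the log2 scale, Ddc, dopa decarboxylase of the proximal tubule, had a fold change of 0.99 (SE 0.53), Ass1, argininosuccinate synthase, of 0.56 (SE 0.37), and Arg2, the mitochondrial arginase, of -0.30 (SE 0.39).

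Glutathione transferases join glutathione to reactive compounds, and none of them passed the test by genotype on whole egg. Of 22 glutathione transferases, 12 carried a symbol, 0 passed the FDR, 7 were positive and 5 negative, and the median log2 fold change was 0.03 beside 0.04 over all genes. At an unadjusted p under 0.05 stood 1 of the 12, Gsta3, with the same count of called genes, 0 of 12, in limma-voom and DESeq2. Gsta3 ran from 0.73 to 22.0 CPM in the lean and from 8.48 to 64.0 CPM in the ZDF rats, with ZDF rat 22 the highest, and its log2 fold change was 1.42 (SE 0.61, edgeR adjusted p = 0.982), and 2.01 without lean rat 21. Gstp1 was at a mean of 367 ± 202 CPM in the lean and 382 ± 233 CPM in the ZDF rats (SD, n = 6 each), which gave 0.06 (SE 0.42) on the log2 scale, with a sign that changed when 1 rat was left out and under 5 other settings. Gstm1 had a log2 fold change of -0.45 (SE 0.35). The 8 measured genes of glutathione and antioxidant enzymes had a median of 0.10. Idh2, which supplies mitochondrial NADPH, averaged 171 ± 84.5 CPM in the lean and 267 ± 73.1 CPM in the ZDF rats (SD, n = 6 each), and its log2 fold change of 0.63 (SE 0.31) had an edgeR adjusted p of 0.999.

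**Figure D4:**
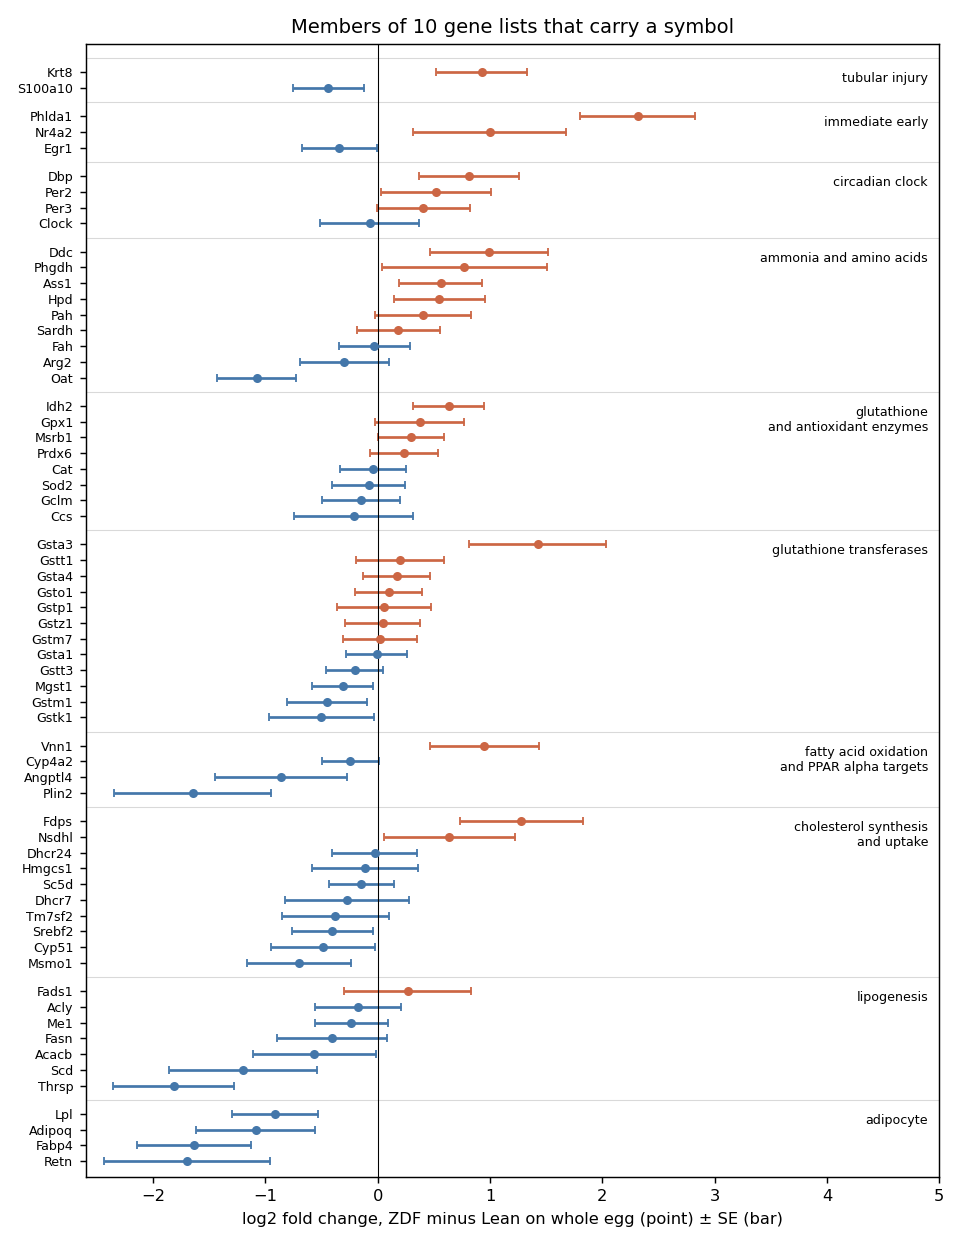
Log2 fold change (ZDF minus lean, whole egg; point) ± SE (bar) of the members of 10 gene lists that carry a symbol, grouped by list; orange marks positive and blue negative values. The 4 adipocyte genes are all negative (-1.70 to -0.91), the glutathione transferases run from -0.50 to 1.42 (Gsta3), and Phlda1 (2.32) is apart from the other immediate early genes.

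Of the 32 genes of the immediate early list, 3 carried a symbol, Phlda1 among them, and their median was 1.00. Egr1, a transcription factor induced within minutes of stimulation, was at 62.5 to 182 CPM in the lean and 33.6 to 117 CPM in the ZDF rats, a log2 fold change of -0.34 (SE 0.34). For Nr4a2, an inducible nuclear receptor, the log2 fold change was 1.00 (SE 0.68), and 0.41 without ZDF rat 11. Col3a1, the fibrillar collagen of the interstitium, averaged 62.2 ± 33.3 CPM in the lean and 37.5 ± 15.2 CPM in the ZDF rats (SD, n = 6 each), or -0.75 (SE 0.39) on the log2 scale. Of the 4 clock genes with a symbol, Dbp had the largest value, 0.82 (SE 0.44). Over all lists, 88 genes were matched by symbol, 0 were called by edgeR and 1, Phlda1, by DESeq2. At an unadjusted p under 0.05 stood 11 of the 88 (12.5%), beside 9.82% of the 387 genes with a symbol and 4.62% of all genes.

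The same contrast in the casein arms asks whether these values belong to the genotype on both diets. In a model of all 24 kidney libraries, no gene was called between ZDF and lean rats on casein (0%; 276 genes at an unadjusted p under 0.05, 4.06%). The interaction of genotype and diet called none in edgeR (0%; 283 genes at an unadjusted p under 0.05, 4.16%) and none in DESeq2 (340 genes). From that model, the log2 fold change of Mbp was 0.60 (SE 0.67) on casein and that of Rtn1 was 0.55 (SE 0.58). On casein Map1b was at -0.03 (SE 0.51), ENSRNOG00000014230 at -0.39 (SE 0.59) and ENSRNOG00000029912 at -0.05 (SE 0.63). These casein values, like those of Mbp and Rtn1, were smaller in size than their SE, so no sign is read from them. Ywhah, a 14-3-3 protein abundant in neurons, was at 0.39 (SE 0.40) on casein and -1.35 (SE 0.39) on whole egg. The interaction of Ywhah, among the 5 with the smallest p, was -1.74 (SE 0.56, edgeR adjusted p = 0.999). Among the genes named here, the study called Ywhah, Rtn1, Gstp1 and Col3a1 between diets in ZDF kidneys. In lean kidneys it called Phlda1, Cdh1, Cyp24a1, Gstm1 and Arg2. Those calls used the same libraries, so the values of these genes here are not independent of that selection. The median over the 131 PFC-enriched genes was 0.15 on casein.

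Cdh1 was -0.43 (SE 0.34) on casein, with an interaction of 1.25 (SE 0.48, edgeR adjusted p = 0.999), and Oat was 0.30 (SE 0.39). Phlda1 kept its sign, with 0.89 (SE 0.43) on casein and an interaction of 1.42 (SE 0.63, unadjusted p = 0.0297, edgeR adjusted p = 0.999). Scaled over all 24 libraries, Phlda1 was at 22.8 to 42.5 CPM in lean rats on casein, 15.9 to 117 CPM in ZDF rats on casein, 7.13 to 47.4 CPM in ZDF rats on whole egg and 3.38 to 11.5 CPM in lean rats on whole egg. The lean rats on whole egg were thus the low group, below every lean rat on casein, and the genotype difference on whole egg and the diet difference in lean rats use the same 6 libraries. ENSRNOG00000011815 had a log2 fold change of 1.12 (SE 0.42) on casein, with lean rats on casein at 59.4 to 236 CPM. The smallest interaction p belonged to a gene without a symbol that was at 18144 CPM in lean casein rat 4, 6270 CPM in ZDF whole egg rat 11 and a median of 8.87 CPM over the 24 kidneys, so its value of 8.83 (SE 2.49) rests on single libraries.

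**Figure D5:**
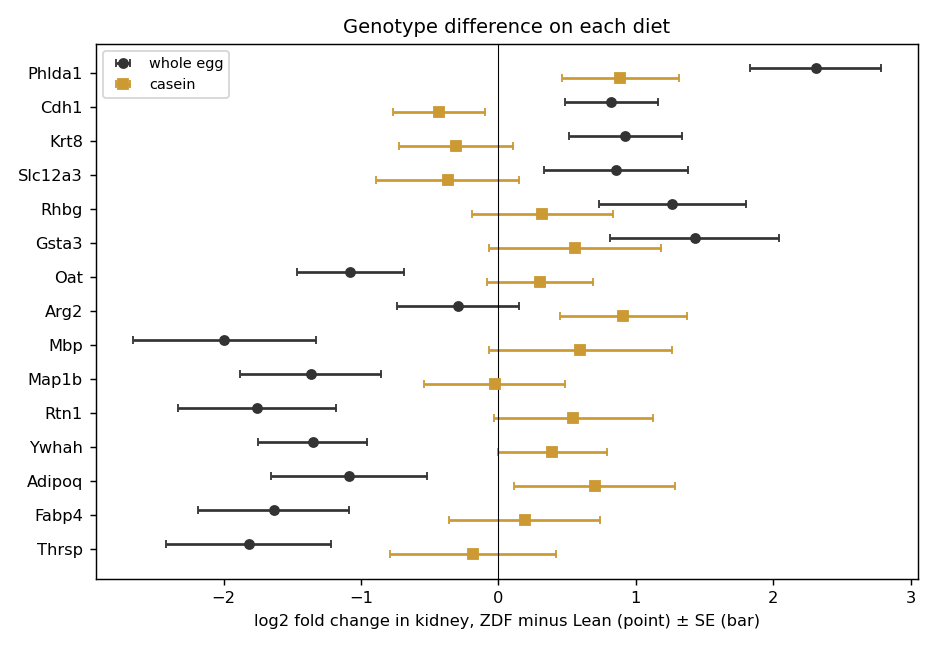
Log2 fold change in kidney (ZDF minus lean; point) ± SE (bar) of 15 genes on whole egg (circles) and on casein (squares), both from the model of 24 libraries. On casein Mbp (0.60), Rtn1 (0.55) and Map1b (-0.03) lie closer to 0 than their SE, and Cdh1 is at -0.43. Phlda1 is positive on both diets (0.89 on casein).

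The same contrast in other tissues of these whole egg rats called 0 of 7395 genes in adipose tissue and 1 of 8289 in the PFC (0.0121%). The log2 fold change of Phlda1 was -1.08 (SE 0.53) in adipose tissue and 0.25 (SE 0.17) in the PFC, and Mbp had -0.23 (SE 0.25) in the PFC. Differences between tissues were not tested.

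The ZDF kidney table alone held 704 genes and the lean table alone 810, since each table keeps only genes with at most 1 of its 12 libraries without a count. Over the 6 whole egg libraries their mean level had a median of 7.87 CPM in the ZDF table and 6.62 CPM in the lean table. Slc16a7, a monocarboxylate transporter, ranked 2 by mean level among the genes of the ZDF table alone, at 19.7 to 59.0 CPM in its 6 whole egg rats. Slc45a3 ranked 5 among those of the lean table alone, at 0 to 70.4 CPM. Whether the other genotype expressed these genes could not be read from the table that leaves them out.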

How the data were processed

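The authors extracted total RNA from kidney, made 3' mRNA libraries (QuantSeq), trimmed them with BBDUK, aligned them with STAR to Rnor_6.0 (Ensembl) and counted reads per gene. The authors deposited unnormalised counts of reads by gene, in 1 table per tissue and genotype that keeps genes with at most 1 of 12 libraries without a count. Their tables of fold changes and p-values between diets were not used. The kit does not include molecular identifiers unless added, and none are described for the counts, so reads are not independent molecules. The 24 sample columns of the liver tables were not used here. Tables were joined by gene identifier. TMM factors and two-sided quasi-likelihood tests came from edgeR 4.0.16 under R 4.3.3. They used Benjamini-Hochberg adjustment over all joined genes, an FDR of 5% and no further filter. DESeq2 1.42.0, limma 3.58.1 and sva 3.50.0 served as alternatives. CPM are scaled by TMM, principal components use log2 CPM with a prior count of 2, and SE is the fold change over the root of the F statistic. The interaction and casein contrasts come from 1 model of 24 kidney libraries.

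Named genes are the 10 with the smallest p in each direction, with at most 2 per direction shown by identifier, the 5 with the smallest interaction p (1 of them with a symbol) and preset genes with a symbol (Cyp24a1, Gstp1, Gstm1, Arg2, Phlda1, Egr1, Col3a1). All other named genes were chosen after their values were seen. The members and lists were chosen with earlier results of these data known. No gene was called, so chromosomes and promoter motifs of called genes were not described. Replicates are separate rats, and no 2 libraries of a group agreed within sampling noise (chi-square per degree of freedom of at least 8.71). The edgeR script was tested on simulated data.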

Additional observations from a re-analysis of the deposited data

Results flagged for a closer look

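Within each group of 6 whole egg rats, the highest or lowest library was set against the others by its gap to the nearest one, as a share of the group's range. Of 84 such groups, 12 exceeded Dixon's critical value for 6 samples. Its rate of about 1 in 20 holds for independent, normally distributed values. CPM and principal components need not be so distributed, and most of the genes were named after their values were seen. No excess is read from the count. Lean rat 10 stood apart on the first principal component (122.8) and for Plin2 (63.6 CPM). Lean rat 2 stood apart on components 2 (-53.4) and 3 (55.7) and for Ywhah (211 CPM), and lean rat 21 for Egr1 (182 CPM). Among the ZDF rats, rat 22 stood apart on component 2 (74.6) and for Gsta3 (64.0 CPM), rat 18 on component 4 (57.2), rat 16 for Mbp (71.9 CPM), rat 11 for Plin2 (15.1 CPM) and rat 7 for Ca3 (200 CPM, other ZDF rats 51.9 to 98.6 CPM).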

How the results depend on the processing

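The count of 0 called genes was unchanged in 24 of 26 alternatives, and was 2 in DESeq2 with its own size factors and 2 in DESeq2 with TMM factors (Phlda1 and ENSRNOG00000011815 in both, so 1 list member). Leaving out each rat in turn gave 0 calls each time, with the smallest adjusted p between 0.055 (without ZDF rat 7) and 0.9999 (without lean rat 17). The 2 alternatives added after seeing the data, without lean rat 10 and ZDF rat 22 and with the PFC-enriched sum as a covariate, also gave 0. The interaction gave 0 calls in all 3 alternatives. Signs were followed over the alternatives for 34 named genes, and 7 of them kept their sign in every one. Some genes named above, such as Fasn, Ddc, Ass1 and Dbp, were not among the 34. With genotype from the strain label the log2 fold change was -1.81 for ENSRNOG00000011815, -0.57 for ENSRNOG00000011875, 0.98 for ENSRNOG00000014230, 0.89 for ENSRNOG00000029912, -0.97 for Phlda1, -0.14 for Cdh1, 1.13 for Mbp, 0.97 for Map1b, 1.07 for Rtn1, -0.45 for Pbld1, 1.32 for Retn, 0.67 for Adipoq, 0.96 for Col3a1, 0.73 for Slc30a3, 1.44 for Plin2, -0.69 for Krt8, 1.18 for Ca3, 0.90 for Fabp4, 0.79 for Lpl, 1.15 for Thrsp, 0.60 for Scd, -0.68 for Idh2, -1.25 for Gstp1, -0.23 for Rhbg, 0.11 for Egr1, 1.14 for Ywhah and -1.53 for Gsta3, with 0 calls. That field moves 7 of the 12 rats to the other group, and which source is right was not settled here. Gstp1 was -0.69 in limma-voom, -0.051 with 1 surrogate variable, -0.085 without lean rat 10 and ZDF rat 22, -0.0043 with the PFC-enriched covariate and -0.23 to 0.33 with 1 rat left out; the cause was not tested. No paired analysis was possible because the ZDF and lean groups hold different rats. Without lean rat 10 Plin2 was -0.83, and with the PFC-enriched covariate the 131 genes had a median of -0.078, as its construction implies. Depth limits low genes, with a median SE of 0.65 under 10 CPM.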
